A study of Caenorhabditis elegans with 15 samples.

Results

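The genes described here are ion channels of the nervous system and muscle of Caenorhabditis elegans, chosen by name: every gene of the count table whose WormBase symbol starts with twk-, acr-, lgc- or glr-. The rule used no measured value. It found 129 of the 20392 genes in the table, of which 44 were twk, 21 acr, 56 lgc and 8 glr genes. The embryo libraries came from 5 groups of 3, which differed in the histone H3 lysine 9 methyltransferase gene met-2 and in a heat exposure of 1 h at 37 °C.

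All 15 libraries were made from total RNA of early embryos, collected before the bean stage from synchronized worms and depleted of ribosomal RNA. The groups were met-2Δ, which carries the deletion allele met-2(n4256), after 37 °C, the wild-type strain N2 (WT) after 37 °C, met-2Δ at 20 °C, met-2-CD, which carries met-2(gw1660) with a catalytically deficient MET-2 protein, at 20 °C, and WT at 20 °C. There was no met-2-CD group at 37 °C. The labels describe the replicates as biologically independent, each mutant is represented by a single allele, and an embryo library mixes all cell types and a range of stages, so fewer cells of a type and less RNA per cell cannot be told apart.

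The twk genes encode two-pore-domain potassium channels, which carry the background potassium current that holds a neuron or muscle cell at rest. The acr genes encode subunits of nicotinic acetylcholine receptors and the lgc genes other members of the same Cys-loop superfamily, several of which open to GABA, serotonin, tyramine or acetylcholine. The glr genes encode ionotropic glutamate receptors of the non-NMDA class. These proteins work mainly in differentiated neurons and muscles, which the early embryo does not yet hold.

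Counts per library summed to between 16145040 and 58837967, and the WT and met-2-CD libraries at 20 °C (38142694 or more) were deeper than all others (27127668 or fewer), so depth moved with group and counts at equal depth are given beside 2 of the results. Levels are given as CPM, counts per 1000000 of a library size scaled by edgeR. The deletion checked the labels, with met-2 at 33.6 CPM in met-2Δ and 313 CPM in WT at 20 °C, and at 60.4 CPM in met-2Δ and 276 CPM in WT at 37 °C. The WT libraries at 20 °C stood apart from the rest: 145 genes differed there more than 10-fold from all other libraries, against 4 to 15 genes for any other group, and 1 of the 145 was a channel gene, twk-49. Early zygotic marker genes summed to 88.3 to 102 CPM in met-2Δ and 88.5 to 93.2 CPM in WT at 37 °C, and to 208 to 230 CPM in met-2Δ, 209 to 239 CPM in met-2-CD and 425 to 478 CPM in WT at 20 °C. Maternal markers ranged between 3850 and 6560 CPM over the 15 libraries, and adult intestine and sperm markers stayed at or below 18.3 and 9.07 CPM in every library, with 4 to 6 of the 9 sperm genes at 3 counts or fewer.

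The channel genes were transcribed at low levels throughout, and least in WT embryos at 20 °C. They summed to 505, 529 and 495 CPM in met-2Δ at 37 °C, against 810, 721 and 725 CPM in WT at 37 °C. At 20 °C the sums were 348, 319 and 323 CPM for met-2Δ, 242, 271 and 383 CPM for met-2-CD, and 138, 144 and 121 CPM for WT. No library of one group overlapped with another group except between met-2Δ and met-2-CD at 20 °C, where the third met-2-CD library lay above all met-2Δ libraries. In each library all channel genes together took between 0.0106% and 0.0841% of the counts, so most single genes rest on few reads.

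**Figure D1:**
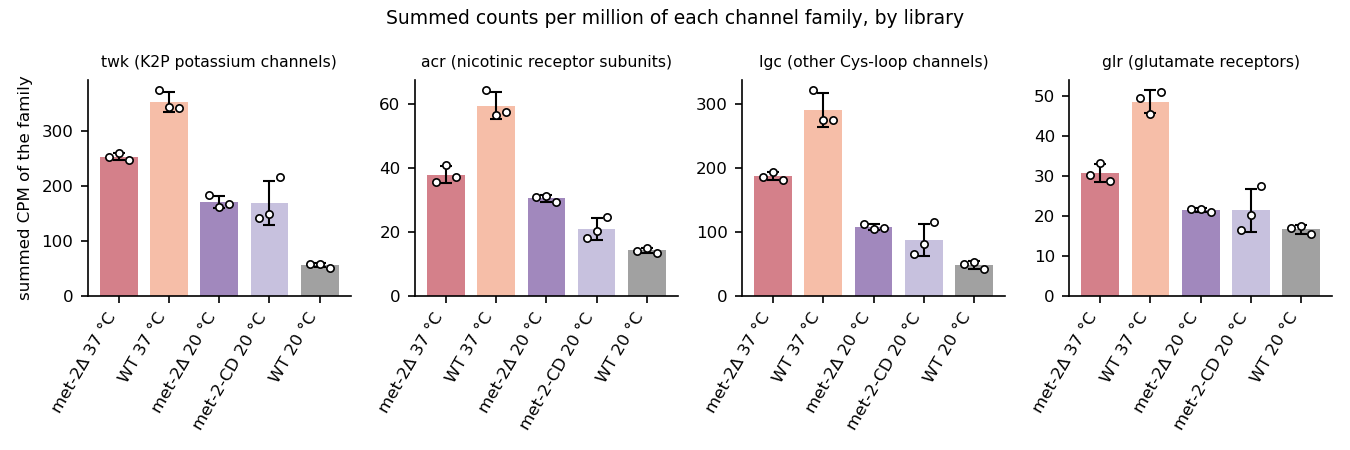
Summed CPM (y axes, from 0) of the twk, acr, lgc and glr genes, 1 panel each, in the 5 groups (x axis, met-2Δ and WT at 37 °C, then met-2Δ, met-2-CD and WT at 20 °C). Bars are means of 3 libraries, error bars the SD and open points the libraries. In all 4 families the WT bar was the highest bar at 37 °C (354, 59.6, 290 and 48.5 CPM) and the lowest at 20 °C (55.7, 14.2, 48 and 16.6 CPM).

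Genes with a group mean of 1 CPM or more numbered 71 in met-2Δ and 82 in WT at 37 °C, against 57 in met-2Δ, 48 in met-2-CD and 31 in WT at 20 °C. Per kilobase of exon the levels were led by few genes. In WT at 37 °C lgc-22 averaged 53.4 RPKM (CPM divided by the exon length in kilobases), lgc-34 and twk-49 29.1 RPKM each, lgc-27 24.7 RPKM and twk-18 17.3 RPKM, whereas the median of the 129 genes was 0.947 RPKM. In WT at 20 °C the leading genes were lgc-27 at 5.92 RPKM and lgc-34 at 5.34 RPKM, and the median was 0.216 RPKM.

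Of the 129 genes, 108 passed the filter on low counts and were tested with edgeR's quasi-likelihood test together with all 15471 genes that passed, with Benjamini-Hochberg adjustment (FDR) over all of them. These were 38 twk, 20 acr, 42 lgc and all 8 glr genes. A gene was called in a comparison of genotypes at an FDR below 0.01 and a difference over 2-fold, and in a comparison of temperatures at an FDR below 0.01 and over 4-fold. The filter keeps a gene that is high in only 1 group, so counts over the 108 describe the tested genes and not the families. The other 21 genes (14 lgc, 6 twk and acr-23) never exceeded 22 counts in any library. acr-23, which encodes a betaine receptor, was the deepest of these and reached its 22 counts in WT at 37 °C, where 18 of the 21 had their highest count.

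The first comparison asked what the loss of met-2 does to these genes at 20 °C. In met-2Δ, 42 of the 108 tested genes (38.9%) rose relative to WT and 2 (1.85%) fell, against 19.2% and 8.43% of all genes tested. The median log2 fold change was 1.03 over the channel genes and 0.07 over all genes. Every family contributed, with 15 of 38 twk, 8 of 20 acr, 15 of 42 lgc and 4 of 8 glr genes higher. In 67 of the 108 genes (62%) all 3 met-2Δ libraries lay above all 3 WT libraries and in 7 (6.48%) below, against 36.8% and 33.3% of all genes tested, and in 34 the groups overlapped. Leaving out any 1 library gave 36 to 42 genes higher, and thinning every library to the depth of the shallowest gave 39 higher and 3 lower. These alternative counts are given without their share of all genes, so they show no excess of channel genes. Marker genes moved in the same comparison: of 16 neuronal markers 10 rose and 1 fell, and of 10 body muscle markers 8 rose and 1 fell, with the muscle markers summing to 1020, 730 and 965 CPM in met-2Δ and to 310, 293 and 178 CPM in WT. Neuronal markers summed to 268 to 291 CPM in met-2Δ and to 356 to 412 CPM in WT, so their sum was lower in met-2Δ although most members rose. Of 8 early zygotic markers 1 rose and 5 fell (median -1.17 on the log2 scale). The part of these cell type signals, and of embryonic stage, in the channel values was not tested.

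**Figure D2:**
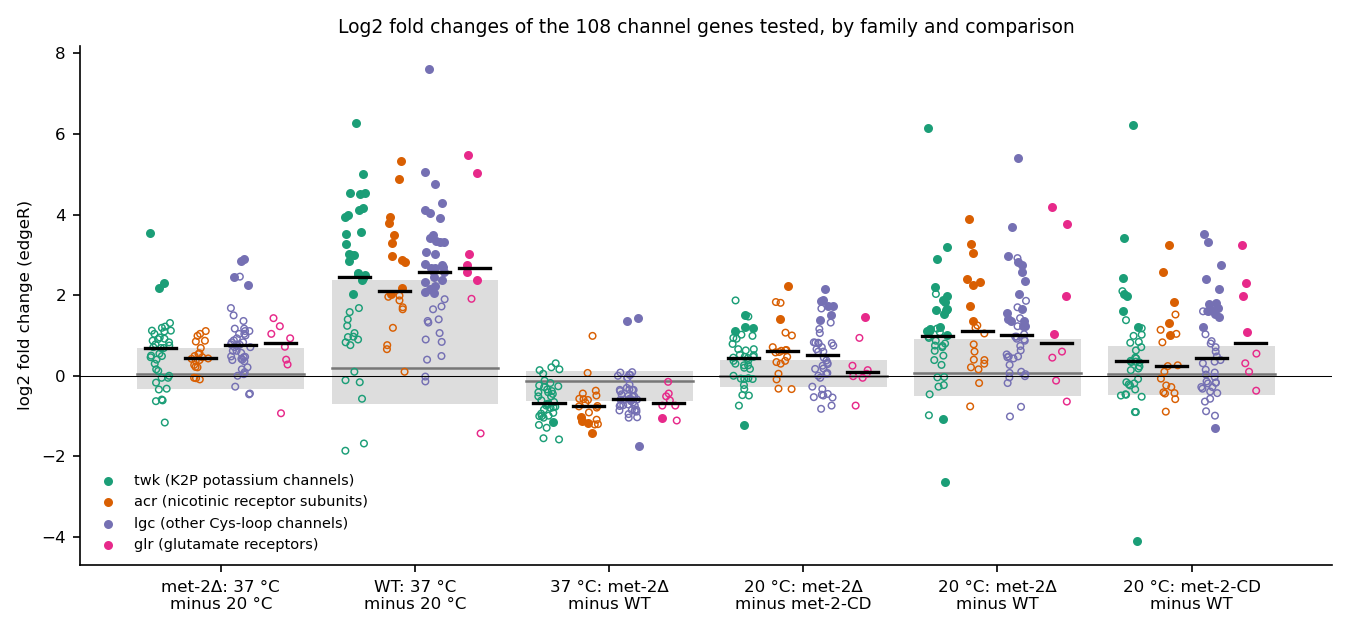
Log2 fold change (y axis) of each of the 108 tested channel genes, coloured by family, in 6 comparisons (x axis). Filled points are called genes, open points are not called, black bars family medians, grey boxes the middle 50% of all genes tested with their median as a grey line. Among the channel genes 68 (63%) rose over 4-fold under heat in WT and 7 (6.48%) in met-2Δ, against 28.2% and 6.3% of all genes. The medians of the channel genes were 2.5 and 0.69.

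Among the potassium channels, twk-11, twk-13 and twk-18 stood at several times their WT level in met-2Δ at 20 °C. twk-11 had 22.1, 17.5 and 20.6 CPM in met-2Δ and 2.71, 3.2 and 0.543 CPM in WT (log2 fold change 3.2 ± 0.44 SE, edgeR FDR 1.12e-05). twk-13 had 7.34, 6.38 and 6.7 CPM in met-2Δ and 1.09, 0.955 and 0.641 CPM in WT (2.91 ± 0.26, FDR 1.39e-07). In both genes every met-2Δ library exceeded every WT library by more than 5-fold. twk-18, whose channel in body wall muscle opens further on warming, had 9.32, 9.39 and 8.04 CPM in met-2Δ and 3.27, 4.27 and 0.863 CPM in WT, a rise of 1.66 ± 0.39 on the log2 scale (FDR 0.00153). The WT libraries at 20 °C disagreed here, since in twk-11 and twk-18 the third WT library lay well below the other two.

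The behavioural channels twk-7, which acts in motor neurons to limit locomotion, and twk-40, which sets the resting potential of the AVA command interneurons, rose less. twk-7 averaged 1.44 ± 0.151 CPM in met-2Δ and 0.617 ± 0.171 CPM in WT (SD, n = 3 each), and twk-40 averaged 1.55 ± 0.158 CPM in met-2Δ and 0.696 ± 0.158 CPM in WT. The fitted differences were 2.32-fold for twk-7 and 2.22-fold for twk-40 (edgeR FDR 0.00125 and 0.000931). Both sat close to the 2-fold threshold: on the log2 scale twk-7 came to 0.96 without WT library c and twk-40 to 0.97 without WT library b.

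The 2 genes that fell in met-2Δ at 20 °C were both twk genes. twk-5 had 0.0777, 0.363 and 0.347 CPM in met-2Δ against 1.17, 1.79 and 2.0 CPM in WT (log2 fold change -2.64 ± 0.39, edgeR FDR 2.12e-05). twk-46 had 1.36, 1.09 and 0.943 CPM in met-2Δ against 2.63, 2.36 and 2.17 CPM in WT (-1.07 ± 0.22, FDR 0.000548). For twk-46 the difference was -0.97 without met-2Δ library c and -0.87 when libraries were scaled by their totals alone, both inside the 2-fold threshold.

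One twk gene stood apart together with the WT libraries at 20 °C. twk-49 had 58, 57.7 and 55.7 CPM in met-2Δ and 60.6, 66.2 and 67.0 CPM in WT at 37 °C, and 63.6, 58.4 and 54.9 CPM for met-2Δ, 62.6, 59.5 and 64.6 CPM for met-2-CD and 0.884, 0.955 and 0.641 CPM in WT at 20 °C. It was thus near one level in 12 libraries and far below it in the 3 WT libraries at 20 °C. Its log2 fold change against WT at 20 °C was 6.14 ± 0.11 in met-2Δ, 6.22 in met-2-CD and 6.27 for WT at 37 °C, comparisons that share those 3 libraries. Measured from the met-2-CD libraries, WT at 37 °C differed by 0.05. Over 608 of its 2219 exon bases (27.4%) twk-49 lies antisense to T28D9.1, which averaged 366 CPM in WT at 20 °C. The authors' counting used strand.

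Nicotinic receptor subunits rose in met-2Δ with subunits of several receptor types among them. Of the 5 tested genes of the levamisole and ACR-2 type, 3 rose. acr-2, whose product excites cholinergic motor neurons, had 0.582, 0.399 and 0.496 CPM in met-2Δ against 0.0188, 0.0477 and 0.0247 CPM in WT. With only 36 counts against 4 counts in all 3 libraries of each group together, the ratio was 16.6 with a 95% counting interval of 5.95 to 64.2. acr-8, a subunit of this type from chromosome X, averaged 3.11 ± 0.237 CPM in met-2Δ and 0.593 ± 0.402 CPM in WT (log2 fold change 2.39, edgeR FDR 0.000156). acr-12, a subunit of the motor neuron receptors, averaged 1.23 ± 0.167 CPM in met-2Δ and 0.484 ± 0.118 CPM in WT (1.37, FDR 0.000289).

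Of the 5 tested genes of the nematode-specific DEG-3 type 3 rose, among them acr-20 and acr-18. acr-20 had 7.65, 8.63 and 7.54 CPM in met-2Δ and 0.847, 1.05 and 1.01 CPM in WT, with little spread in either group (log2 fold change 3.04 ± 0.14, edgeR FDR 8.2e-11). acr-18 had 1.09, 1.27 and 1.19 CPM in met-2Δ and 0.188, 0.239 and 0.321 CPM in WT (2.25 ± 0.26, FDR 1.56e-06). Of the 10 genes of the ACR-16 type 2 rose, a share near the 19.2% of all genes. One was acr-25 at 1.13, 0.725 and 1.04 CPM in met-2Δ and 0.0753, 0.0955 and 0.123 CPM in WT (3.26 ± 0.43, FDR 6.67e-06). acr-16 itself, the homomeric nicotine-sensitive receptor of the body wall neuromuscular junction, was not called, at 6.56, 6.74 and 6.35 CPM in met-2Δ and 4.95, 5.04 and 4.98 CPM in WT (0.39 ± 0.11, FDR 0.00581). Its libraries did not overlap, so the acr genes differed widely in size of response.

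The gene with the largest rise among the lgc genes was lgc-22, an otherwise little described Cys-loop channel gene on chromosome IV. It had 18.9, 15.8 and 16.3 CPM in met-2Δ and 0.508, 0.334 and 0.321 CPM in WT at 20 °C, a log2 fold change of 5.41 ± 0.47 (edgeR FDR 7.7e-08). lgc-45 had 2.14, 1.6 and 3.03 CPM in met-2Δ and 0.188, 0.167 and 0.148 CPM in WT (3.69 ± 0.31, FDR 6.67e-08). lgc-39, whose channel responds to acetylcholine and to amines, had 3.46, 2.57 and 3.27 CPM in met-2Δ and 0.47, 0.454 and 0.222 CPM in WT (2.98 ± 0.31, FDR 5.02e-07). In all 3 genes the lowest met-2Δ library lay above the highest WT library.

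The channel genes with a known transmitter are given as single genes, since 2 of 7 amine-gated genes, 1 of 3 tested GABA group genes and 0 of 4 tested acetylcholine-gated chloride channel genes rose, against 19.2% of all genes. Among the amine-gated genes lgc-50, a serotonin-gated cation channel, averaged 1.57 ± 0.323 CPM in met-2Δ and 0.622 ± 0.104 CPM in WT (log2 fold change 1.35, edgeR FDR 6.93e-05), and lgc-55, a tyramine-gated chloride channel, averaged 2.28 ± 0.486 CPM in met-2Δ and 0.715 ± 0.323 CPM in WT (1.65, FDR 0.000566). lgc-50 came to 0.88 when all libraries were thinned to the smallest. In the GABA group lgc-35, an excitatory GABA-gated cation channel, was higher, with 20 counts in met-2Δ against 5 in WT and a ratio of 7.38 (95% counting interval 2.69 to 25.2). This call was lost at equal depth (FDR 0.0119). The acetylcholine-gated chloride channel gene lgc-46, named here for its values, had 2.87, 2.94 and 3.92 CPM in met-2Δ and 3.37, 3.65 and 2.91 CPM in WT, with overlapping groups (-0.04 ± 0.18 on the log2 scale, FDR 0.866).

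The glutamate receptor genes split in this comparison. glr-1, the AMPA-type receptor subunit of the command interneurons, had 4.35, 3.99 and 5.16 CPM in met-2Δ and 0.282, 0.215 and 0.222 CPM in WT (log2 fold change 4.19 ± 0.46, edgeR FDR 1.15e-06). Its partner subunit glr-2 had 2.41, 2.36 and 1.54 CPM in met-2Δ and 2.07, 2.65 and 2.19 CPM in WT (-0.12 ± 0.28, FDR 0.736), so the groups overlapped. glr-5 had 2.56, 2.25 and 1.89 CPM in met-2Δ and 0.151, 0.167 and 0.173 CPM in WT (3.76 ± 0.45, FDR 2.44e-06). glr-8 averaged 0.598 ± 0.0171 CPM in met-2Δ and 0.151 ± 0.033 CPM in WT (1.99, FDR 0.00227), a call that was lost without WT library a (1.74, FDR 0.0137). glr-3, known as a cold receptor of sensory neurons, had at most 7 counts per library in either group and was not called.

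The second comparison asked what the loss of MET-2 catalysis alone does. In met-2-CD, 29 of the 108 genes (26.9%) rose relative to WT and 2 (1.85%) fell, against 15.9% and 7.84% of all genes tested, with medians of 0.38 and 0.04 on the log2 scale. By family 7 of 38 twk, 5 of 20 acr, 13 of 42 lgc and 4 of 8 glr genes rose. In 44 genes (40.7%) all met-2-CD libraries lay above all WT libraries and in 11 (10.2%) below, against 32.3% and 30.9% of all genes, and in 53 the groups overlapped. The met-2-CD libraries disagreed with each other more than those of any other group: of 48 genes at 1 CPM or more 20 differed over 2-fold between met-2-CD libraries, and library c was the highest in all 20, against 0 of 57 genes in met-2Δ and 4 of 31 in WT at 20 °C. Body muscle markers summed to 525, 683 and 1060 CPM in the met-2-CD libraries a, b and c, in the same order. Of 8 early zygotic markers 0 rose and 5 fell against WT (median -1.05 on the log2 scale). The part of these signals, and of embryonic stage, in the channel values was not tested. Without library c 22 genes were higher, and a fit to the met-2-CD and WT libraries at 20 °C alone called 17. No share of all genes from those fits is set beside these counts, so they show no excess of channel genes.

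Members whose met-2-CD values were close together include acr-20, lgc-45 and twk-49. acr-20 had 5.63, 6.03 and 5.57 CPM in met-2-CD and 0.847, 1.05 and 1.01 CPM in WT (log2 fold change 2.57 ± 0.14, edgeR FDR 4.93e-10). lgc-45 had 0.469, 0.52 and 0.497 CPM in met-2-CD and 0.188, 0.167 and 0.148 CPM in WT (1.53 ± 0.35, FDR 0.00138). In both genes all met-2-CD libraries lay above all WT libraries with little spread.

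In other members the met-2-CD libraries spread over several fold. lgc-22 had 1.55, 3.58 and 8.41 CPM in met-2-CD (log2 fold change against WT 3.52 ± 0.49, edgeR FDR 1.36e-05), glr-1 0.828, 1.91 and 4.16 CPM (3.25 ± 0.47, FDR 1.99e-05), and twk-11 13, 17.1 and 40.3 CPM (3.43 ± 0.44, FDR 5.94e-06). All these values lay above the WT libraries, and the 3 calls held without library c. acr-2 had 0.193, 0.0832 and 0.642 CPM in met-2-CD and a ratio to WT of 10.7 (95% counting interval 3.9 to 41.2), but its call was lost without library c (FDR 0.0142). The calls of acr-8 (1.17, FDR 0.0121), glr-8 (1.32, FDR 0.0129) and twk-8 (0.87, under the 2-fold threshold) were lost without library c too, and that of acr-8 also without WT library a (1.58, FDR 0.0113).

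twk-5 and lgc-1 fell in met-2-CD. twk-5 had 0.166, 0.0416 and 0.0829 CPM in met-2-CD against 1.17, 1.79 and 2.0 CPM in WT (log2 fold change -4.11 ± 0.41, edgeR FDR 4.63e-07). lgc-1 had 0.414, 0.769 and 0.456 CPM in met-2-CD against 1.43, 1.46 and 1.18 CPM in WT (-1.29 ± 0.27, FDR 0.000555). lgc-1 shares 16 exon bases on the same strand with nhr-57.

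The third comparison set the deletion against the catalytic mutant. In met-2Δ 14 of the 108 genes (13%) were higher than in met-2-CD and 1 (0.926%) was lower, against 4.96% and 0.892% of all genes tested, with medians of 0.46 and 0.01 on the log2 scale. The 14 were 4 twk, 2 acr, 7 lgc and 1 glr gene. In 35 genes (32.4%) all met-2Δ libraries lay above all met-2-CD libraries and in 5 (4.63%) below, against 22% and 24.1% of all genes, and in 68 the groups overlapped. The count of 14 depended on single libraries: it was 8 without met-2-CD library b, 9 without met-2Δ library a, 20 without met-2-CD library c, and 7 in a fit to these 2 groups alone. These alternative counts too are given without their share of all genes.

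Genes with well separated levels were acr-25, lgc-45, lgc-21 and acr-18. acr-25 had 1.13, 0.725 and 1.04 CPM in met-2Δ, against 0.11, 0.125 and 0.352 CPM in met-2-CD (log2 fold change 2.22 ± 0.38, edgeR FDR 0.000541). lgc-45, with the values given above, differed by 2.15 ± 0.27 (FDR 5.84e-05) and acr-18, at 0.497, 0.499 and 0.332 CPM in met-2-CD, by 1.42 ± 0.24 (FDR 0.000496). lgc-21 had 7.61, 6.63 and 5.31 CPM in met-2Δ, against 1.74, 1.77 and 2.32 CPM in met-2-CD (1.74 ± 0.22, FDR 6.39e-05). In WT lgc-21 stood between the mutants at 2.77, 3.65 and 4.36 CPM. The gene lower in met-2Δ was twk-46, with 1.36, 1.09 and 0.943 CPM in met-2Δ, against 2.76, 2.68 and 2.47 CPM in met-2-CD (-1.21 ± 0.22, FDR 0.00092). lgc-22 was higher in met-2Δ by 1.89 ± 0.35 (FDR 0.000921), a call that was lost in a fit to these 2 groups alone (FDR 0.0204).

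**Figure D3:**
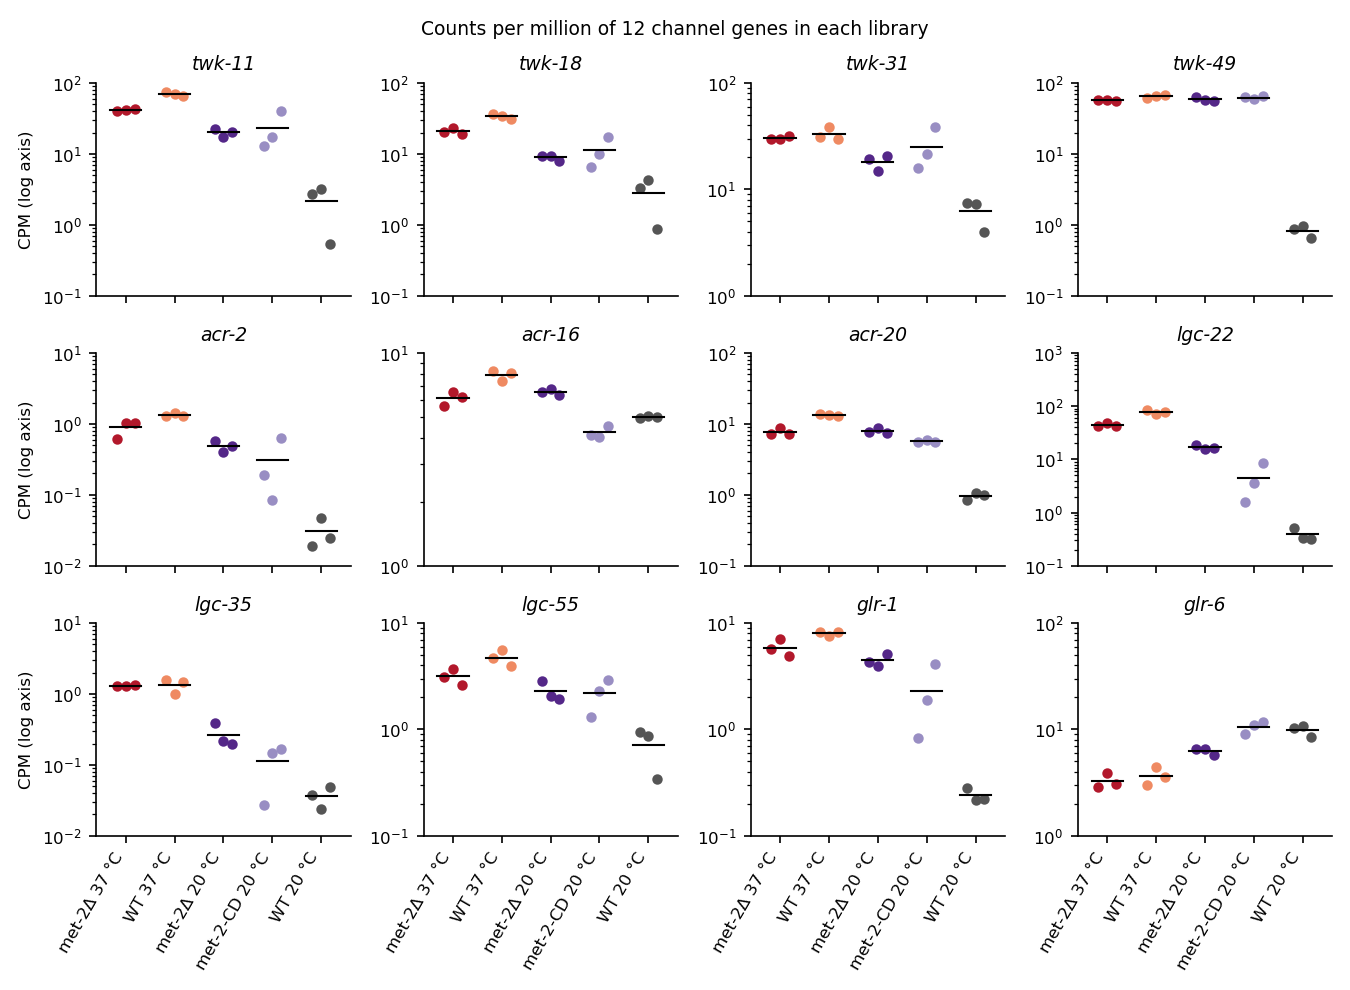
CPM on log axes (y) of 12 channel genes, 1 panel each, in the 5 groups (x axis, met-2Δ and WT at 37 °C, then met-2Δ, met-2-CD and WT at 20 °C). Points are libraries a, b and c from left to right and black bars group means. twk-49 was low only in WT at 20 °C (0.641 to 0.955 CPM) and glr-6 was highest in met-2-CD and WT at 20 °C (8.48 to 11.7 CPM).

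The fourth comparison was the heat exposure of WT embryos, where the channel genes moved most. At 37 °C 68 of the 108 genes (63%) rose over 4-fold relative to 20 °C, against 28.2% of all genes tested, and the median log2 fold change was 2.5 over the channel genes and 0.18 over all genes. By family these were 22 of 38 twk, 11 of 20 acr, 29 of 42 lgc and 6 of 8 glr genes. None of the 108 fell over 4-fold by edgeR or DESeq2, against 4.02% of all genes, with 3 lower at an FDR below 0.01 without a fold threshold and the same number, 3, at an unadjusted edgeR p below 0.05. In 97 genes (89.8%) all 37 °C libraries lay above all 20 °C libraries and in 5 (4.63%) below, against 47.3% and 38.4% of all genes, and in 6 they overlapped. WT at 37 °C was the group with the highest mean in 89 of the 108 genes, and WT at 20 °C the group with the lowest mean in 68. The same count was not made over all genes, so these 2 numbers show no excess of channel genes. When met-2-CD rather than WT served as the 20 °C baseline, 45 genes were higher and 0 lower, 40 of them among the 68, and the median was 1.74. That comparison differs in genotype as well as in heat. Under that baseline 19.6% of all genes were higher and 1% lower. At equal depth 58 were higher, a count from another fit that is given without its share of all genes.

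Neuronal and muscle markers also moved under heat in WT: 10 of 16 neuronal and 9 of 10 muscle markers rose, and 4 of 8 early zygotic markers fell. Markers of adult intestine and sperm rose too, in 4 of 4 and 2 of 2 tested genes (medians 2.82 and 3.84 on the log2 scale), from low sums: intestine markers summed to 10.7 to 18.3 CPM at 37 °C and 0.931 to 2.39 CPM at 20 °C, and sperm markers to 6.89 to 9.07 CPM at 37 °C and 0.345 to 0.621 CPM at 20 °C in WT. The muscle markers summed to 4090, 2680 and 3480 CPM in WT at 37 °C and to 310, 293 and 178 CPM in WT at 20 °C. Neuronal markers summed to 422 to 473 CPM at 37 °C and to 356 to 412 CPM at 20 °C. The part of these signals, and of embryonic stage, in the channel values was not tested.

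lgc-22 had the largest rise of all members, at 85.6, 72.0 and 77.6 CPM in WT at 37 °C against 0.508, 0.334 and 0.321 CPM in WT at 20 °C (log2 fold change 7.61 ± 0.47, edgeR FDR 5.68e-10). Against the met-2-CD libraries at 20 °C the difference was 4.09 and was still called. Among the glutamate receptors glr-5 had 7.63, 7.35 and 7.5 CPM at 37 °C against 0.151, 0.167 and 0.173 CPM at 20 °C (5.49 ± 0.42, FDR 5.85e-09), and glr-1 had 8.17, 7.56 and 8.26 CPM against 0.282, 0.215 and 0.222 CPM (5.02 ± 0.45, FDR 4.37e-08). In these 3 genes the 37 °C libraries agreed closely. Against met-2-CD the difference of glr-5 was 3.20 and that of glr-1 was 1.77, under the 4-fold threshold.

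Potassium channel genes rose to some of the highest levels of the families. twk-11 had 75.4, 69.2 and 66.0 CPM at 37 °C against 2.71, 3.2 and 0.543 CPM at 20 °C in WT (log2 fold change 5.01 ± 0.45, edgeR FDR 4.39e-08). twk-13 had 24.1, 20.3 and 18.8 CPM at 37 °C against 1.09, 0.955 and 0.641 CPM (4.53 ± 0.27, FDR 3.12e-10), and the warmth-opened channel gene twk-18 had 36.1, 33.7 and 31.3 CPM against 3.27, 4.27 and 0.863 CPM (3.58 ± 0.4, FDR 4.44e-07). Even the lowest 37 °C library exceeded the highest 20 °C library by more than 7-fold in these genes. Against met-2-CD at 20 °C twk-13 stayed called (2.10), whereas twk-11 (1.58) and twk-18 (1.59) did not reach 4-fold. twk-8 had 26.5, 20.9 and 22.1 CPM at 37 °C against 1.73, 1.41 and 1.23 CPM at 20 °C (3.98 ± 0.24, FDR 3.57e-10).

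All 5 tested nicotinic subunit genes of the levamisole and ACR-2 type rose in WT under heat. acr-2 had 111 counts at 37 °C against 4 at 20 °C, a ratio of 45.8 with a 95% counting interval of 17.4 to 171. acr-8 had 9.59, 8.6 and 8.99 CPM against 0.433, 1.05 and 0.296 CPM (log2 fold change 3.94 ± 0.42, edgeR FDR 2.7e-07) and acr-12 3.91, 3.83 and 3.48 CPM against 0.357, 0.501 and 0.592 CPM (2.96 ± 0.24, FDR 1.27e-08). In each of these genes the temperatures were fully separated. Against met-2-CD at 20 °C acr-2 (2.09) and acr-8 (2.12) stayed called, whereas acr-12 (1.96) did not reach 4-fold. Of the ACR-16 type 4 of 10 rose and of the DEG-3 type 2 of 5, against 28.2% of all genes, including acr-25 at 3.2, 3.08 and 2.6 CPM against 0.0753, 0.0955 and 0.123 CPM (4.89 ± 0.37, FDR 6.35e-09) and acr-20 at 13.7, 13.3 and 12.9 CPM against 0.847, 1.05 and 1.01 CPM (3.78 ± 0.14, FDR 2.72e-12). Against met-2-CD at 20 °C acr-25 differed by 3.85 and stayed called, and acr-20 differed by 1.21 and was not called. The muscle receptor gene acr-16, at 8.24, 7.42 and 8.07 CPM at 37 °C against 4.95, 5.04 and 4.98 CPM at 20 °C, passed the FDR but not 4-fold (0.66 ± 0.11, FDR 3.89e-05).

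All 3 tested GABA group genes, 4 of the 7 amine-gated genes and 1 of 4 tested acetylcholine-gated chloride channel genes rose, against 28.2% of all genes. lgc-35 had 111 counts at 37 °C against 5 at 20 °C (ratio 36.6, 95% counting interval 15.2 to 115), and lgc-37, a GABA-A receptor type subunit, had 1.92, 1.11 and 2.07 CPM against 0.113, 0.191 and 0.197 CPM (log2 fold change 3.34 ± 0.37, edgeR FDR 4.82e-07). lgc-50 had 4.54, 3.12 and 4.21 CPM against 0.583, 0.74 and 0.543 CPM (2.66 ± 0.21, FDR 7.8e-09), and lgc-55 had 4.65, 5.55 and 3.94 CPM against 0.941, 0.859 and 0.345 CPM (2.69 ± 0.33, FDR 1.37e-06). Against met-2-CD at 20 °C lgc-35 (3.46), lgc-37 (3.26) and lgc-50 (2.06) stayed called, whereas lgc-55 (1.1) did not reach 4-fold. The cold receptor gene glr-3 also rose, to 0.639, 0.645 and 0.727 CPM in WT at 37 °C, against 0.0753, 0.0716 and 0.148 CPM at 20 °C (2.75 ± 0.48, FDR 6.23e-05), on at most 19 counts per library.

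The 3 members lower in WT at 37 °C at an FDR below 0.01, all under 4-fold, are named here because of their values. glr-6, a glutamate receptor gene on chromosome X, had 2.98, 4.41 and 3.56 CPM in WT at 37 °C against 10.3, 10.7 and 8.48 CPM at 20 °C (log2 fold change -1.43 ± 0.17, edgeR FDR 8.49e-07). twk-25 had 1.95, 1.51 and 1.65 CPM at 37 °C against 6.02, 5.63 and 6.88 CPM at 20 °C (-1.86 ± 0.24, FDR 2.17e-06). Both were separated between temperatures. In met-2Δ their heat differences were -0.93 and -1.16 on the log2 scale (FDR 0.000486 and 0.00196). twk-5 had 0.568, 0.538 and 0.421 CPM in WT at 37 °C against 1.17, 1.79 and 2.0 CPM in WT at 20 °C (-1.68 ± 0.34, FDR 0.00023). Against met-2-CD at 20 °C, WT at 37 °C was higher in twk-5 by 2.43 ± 0.49 (edgeR FDR 0.000347) and called. In met-2-CD twk-5 stood at 0.166, 0.0416 and 0.0829 CPM on 6 counts or fewer per library. That comparison also holds the genotype difference, since twk-5 was called lower in met-2-CD than in WT at 20 °C.

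The fifth comparison was the same heat exposure in met-2Δ. Here 7 of the 108 genes (6.48%) rose over 4-fold relative to 20 °C, against 6.3% of all genes tested, and the median log2 fold change was 0.69 over the channel genes and 0.04 over all genes. None fell over 4-fold by edgeR or DESeq2, against 0.53% of all genes, with 4 lower at an unadjusted edgeR p below 0.05. Without the fold threshold 20 genes were higher and 3 lower. The share of channel genes past 4-fold in met-2Δ was close to the background share. All 37 °C libraries lay above all 20 °C libraries in 63 genes (58.3%) and below in 6 (5.56%), against 34.3% and 32.3% of all genes. In met-2Δ the muscle markers summed to 2580, 2140 and 2490 CPM at 37 °C and to 1020, 730 and 965 CPM at 20 °C.

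The 7 genes were lgc-51, twk-32, twk-3, lgc-12, lgc-35, lgc-37 and twk-4. All 7 were among the 68 of WT, which is 100% of the shorter list and 10.3% of the longer, and the 2 comparisons share no library. twk-32 stood out, with 20.7, 18.8 and 21.8 CPM in met-2Δ and 21.3, 19.1 and 19 CPM in WT at 37 °C, against 1.55, 1.74 and 1.93 CPM in met-2Δ and 0.922, 0.955 and 0.666 CPM in WT at 20 °C. Its heat log2 fold change was 3.55 ± 0.18 in met-2Δ and 4.53 ± 0.18 in WT (edgeR FDR 7.73e-10 and 5.91e-12), and the heated libraries of both genotypes overlapped.

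The GABA group genes lgc-35 and lgc-37 had heated met-2Δ libraries that overlapped with the heated WT libraries. lgc-35 had 1.3, 1.3 and 1.32 CPM in met-2Δ and 1.56, 1.0 and 1.49 CPM in WT at 37 °C, against 0.388, 0.218 and 0.198 CPM in met-2Δ at 20 °C (log2 fold change in met-2Δ 2.25 ± 0.37, edgeR FDR 0.00012). lgc-37 had 1.81, 1.65 and 1.62 CPM in met-2Δ and 1.92, 1.11 and 2.07 CPM in WT at 37 °C, against 0.388, 0.399 and 0.0992 CPM in met-2Δ at 20 °C (2.44 ± 0.39, FDR 9.53e-05). lgc-12 had 2.07, 1.92 and 1.68 CPM at 37 °C against 0.233, 0.254 and 0.298 CPM at 20 °C in met-2Δ (2.85 ± 0.35, FDR 7.3e-06). lgc-51, of the amine-gated group, had 4.62, 1.65 and 3.18 CPM against 0.427, 0.29 and 0.546 CPM (2.91 ± 0.41, FDR 3.16e-05), so its heated libraries spread over more than 2-fold. twk-3 rested on 26 counts against 7, a ratio of 4.68 with a 95% counting interval of 1.98 to 12.8, and its call was lost without met-2Δ library a or b at 20 °C (FDR 0.0142 and 0.0103) or library a or b at 37 °C (FDR 0.0169 and 0.0102). The twk-4 value (2.29 ± 0.43, FDR 0.000376) is uncertain. It was under 4-fold without met-2Δ library b at 20 °C (1.79) and at a prior count of 8 (1.27). In the WBcel235 annotation 2375 of its 3427 exon bases overlap exons of sym-2 on the same strand. In met-2Δ sym-2 averaged 48.6 CPM and twk-4 0.693 CPM at 37 °C, against 38.2 and 0.147 CPM at 20 °C. How reads on the shared bases were counted was not tested.

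**Figure D4:**
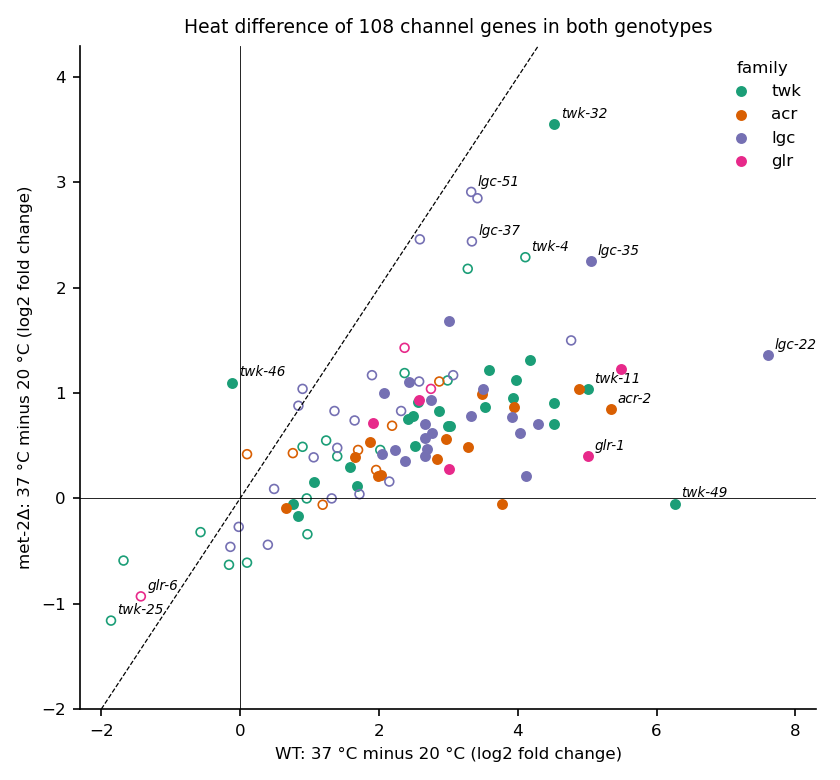
Heat log2 fold change (37 °C minus 20 °C) of each of the 108 tested channel genes in met-2Δ (y axis) against WT (x axis), coloured by family. Filled points passed the interaction test (FDR below 0.01), open points did not, and the dashed line marks equal change. Of the 108 genes 100 lay below the line, with a lower signed value in met-2Δ than in WT, and 8 above it. The share of all genes below the line was not counted. The median of met-2Δ minus WT over all genes was -0.15.

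The difference between the heat responses was itself tested with an interaction term, which subtracts the heat log2 fold change of WT from that of met-2Δ. It was negative at an FDR below 0.01 in 60 of the 108 genes (55.6%) and positive in 1 (0.926%), against 27% and 23.1% of all genes tested, with medians of -1.64 over the channel genes and -0.15 over all genes. By family 22 of 38 twk, 13 of 20 acr, 20 of 42 lgc and 5 of 8 glr genes were negative. Over the 68 genes that rose in WT the median heat log2 fold change was 0.87 in met-2Δ and 3.02 in WT. Across the 108 genes the heat changes of the genotypes had a Pearson r of 0.58, a description over genes measured in the same libraries. The interaction is the genotype difference at 37 °C minus that at 20 °C, so it holds the WT libraries at 20 °C too. On a met-2-CD baseline 26 genes were negative, 22 of them among the 60, and 1 positive, against 8.87% and 5.27% of all genes, with a channel median of -1.16. Marker genes moved in the interaction too. Of 16 neuronal markers 12 were negative and 2 positive, and of 10 muscle markers 9 were negative and 1 positive (medians -3.03 and -2.38). Negative values were also called in 2 of 4 tested adult intestine and 2 of 2 tested sperm markers. Of 8 early zygotic markers 6 were positive and 1 negative (median 1.03), and of 16 maternal markers 3 were positive and 3 negative. Their part in the channel values was not tested.

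The interaction subtracts the genotype difference at 20 °C, so a gene already high in met-2Δ there tends to a negative value by construction. The genes lgc-22, glr-1 and acr-20 show the levels behind such values. lgc-22 had 42.1, 47.5 and 41.7 CPM in met-2Δ at 37 °C and 18.9, 15.8 and 16.3 CPM in met-2Δ at 20 °C, a heat change of 1.36 ± 0.33 on the log2 scale against 7.61 in WT (interaction -6.25 ± 0.57, edgeR FDR 3.39e-07). glr-1 had 5.65, 7.06 and 4.92 CPM in met-2Δ at 37 °C and 4.35, 3.99 and 5.16 CPM at 20 °C (interaction -4.63 ± 0.58, FDR 7.35e-06). acr-20 had 7.16, 8.66 and 7.21 CPM in met-2Δ at 37 °C and 7.65, 8.63 and 7.54 CPM at 20 °C (interaction -3.82 ± 0.18, FDR 5.7e-10). glr-1 and acr-20 thus overlapped between temperatures in met-2Δ. With met-2-CD as baseline the interaction was -2.73 for lgc-22 and -1.25 for acr-20, both called. For glr-1 it was -1.38 and not called (edgeR FDR 0.0501). The positive value was that of twk-46, which had 2.44, 3.04 and 1.8 CPM in met-2Δ at 37 °C and 1.36, 1.09 and 0.943 CPM at 20 °C, while WT had 1.92, 2.8 and 1.95 CPM at 37 °C and 2.63, 2.36 and 2.17 CPM at 20 °C (interaction 1.21 ± 0.31, FDR 0.00327). With this gene no longer past the threshold, the number of positive interactions was 0 without met-2Δ library c at 20 °C, without met-2Δ library b at 37 °C, and under scaling by library totals.

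The last comparison set the genotypes against each other after heat. At 37 °C 2 of the 108 genes (1.85%) were higher in met-2Δ than in WT and 7 (6.48%) were lower, against 1.52% and 5.71% of all genes tested, so both shares were close to the background. The median log2 fold change was -0.6 over the channel genes and -0.13 over all genes. In 65 genes (60.2%) all met-2Δ libraries lay below all WT libraries and in 3 (2.78%) above, against 36.8% and 19.9% of all genes, and in 40 the groups overlapped. Each of the 9 calls was lost without at least 1 library of these groups. The number of genes lower was 0 without WT library a, and 4, 1 and 1 without the met-2Δ libraries a, b and c. The number higher was 0 without any 1 of the WT libraries or without met-2Δ library a or c.

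The 7 lower genes were acr-5, acr-11, acr-12, acr-19, glr-2, lgc-54 and twk-12. acr-12 had 1.56, 1.92 and 2.04 CPM in met-2Δ and 3.91, 3.83 and 3.48 CPM in WT at 37 °C (log2 fold change -1.03 ± 0.23, edgeR FDR 0.00374), a value at the 2-fold threshold. glr-2 had 6.43, 5.14 and 5.64 CPM in met-2Δ and 12, 9.93 and 13.9 CPM in WT (-1.06 ± 0.26, FDR 0.00645). twk-12 had 1.35, 1.12 and 1.14 CPM in met-2Δ and 3.37, 1.9 and 2.75 CPM in WT (-1.15 ± 0.22, FDR 0.00139). These groups did not overlap, and the differences were near 2-fold in each.

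The higher genes were lgc-9 and lgc-51. lgc-9 had 1.04, 1.07 and 0.721 CPM in met-2Δ and 0.426, 0.251 and 0.421 CPM in WT at 37 °C (log2 fold change 1.37 ± 0.33, edgeR FDR 0.0058), and 0.427, 0.508 and 0.446 CPM in met-2Δ and 0.113, 0.215 and 0.271 CPM in WT at 20 °C (1.24 ± 0.36, FDR 0.00696). It was called in the same direction at both temperatures, on 24 counts or fewer per library. At 37 °C the call was lost without any 1 of the 6 libraries (FDR 0.0101 to 0.0279), and at 20 °C without any met-2Δ library, without WT library a or b (0.0165 to 0.0498 over these), and without met-2-CD library b or c (0.0111 and 0.0106). lgc-51 had 4.62, 1.65 and 3.18 CPM in met-2Δ and 1.31, 0.645 and 1.49 CPM in WT (1.44 ± 0.35, FDR 0.00646).

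**Figure D5:**
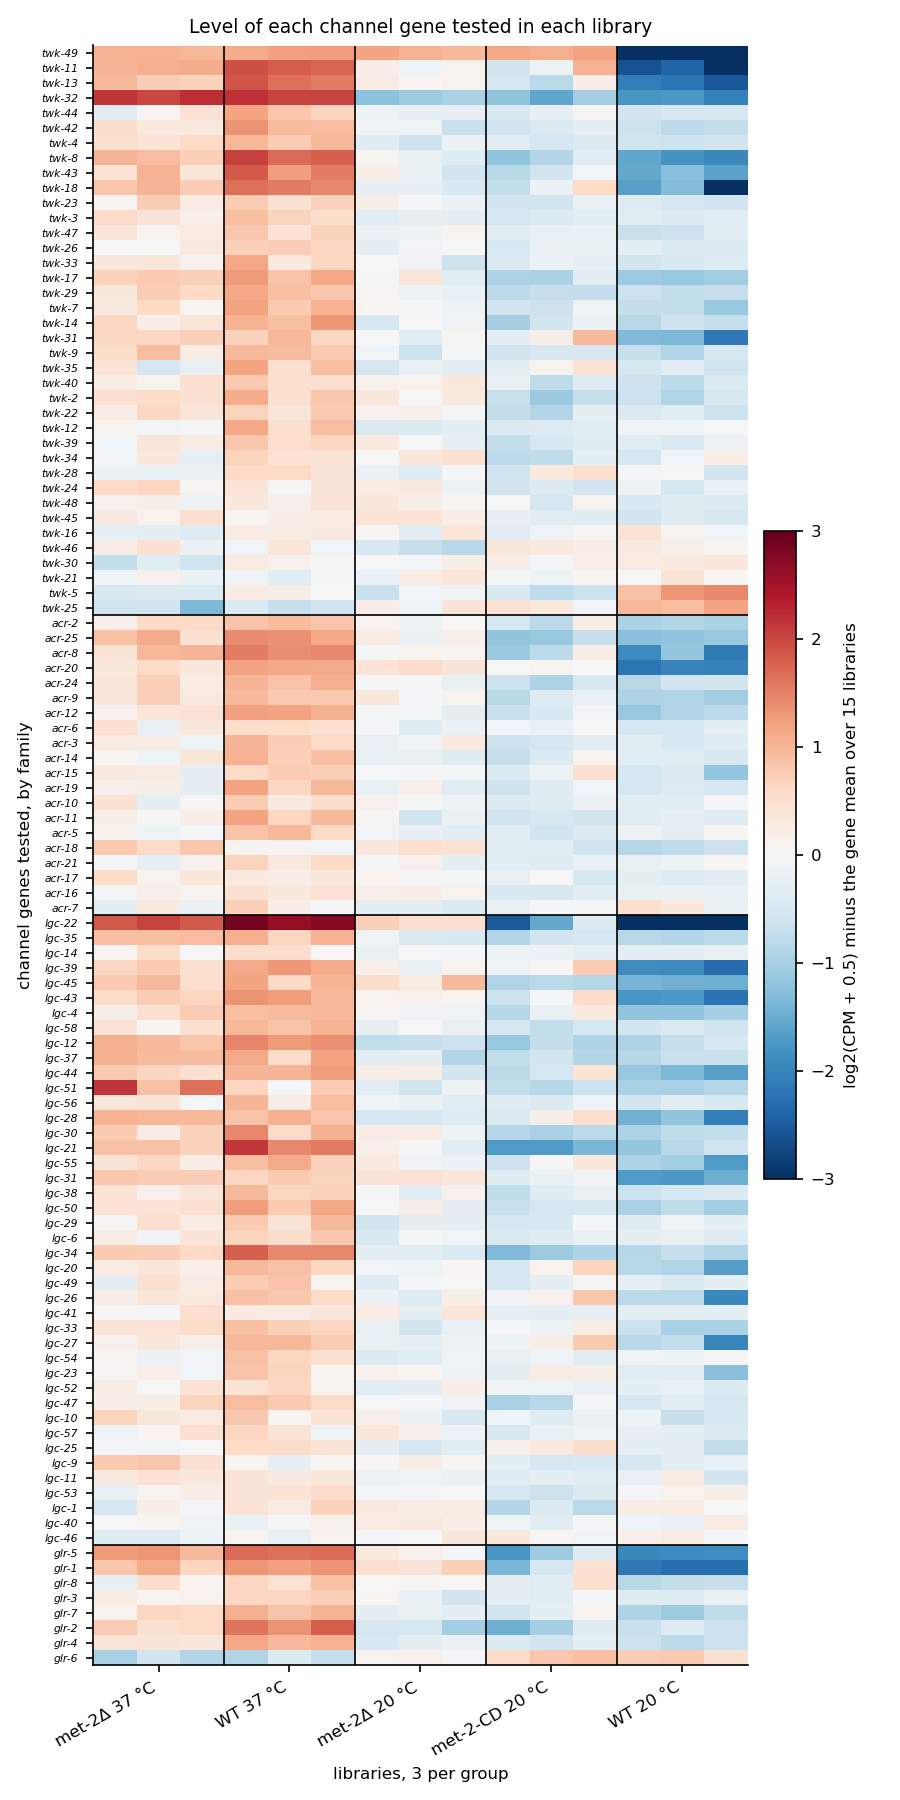
Level of each of the 108 tested channel genes (rows, by family) in each of the 15 libraries (columns, 3 per group, met-2Δ and WT at 37 °C, then met-2Δ, met-2-CD and WT at 20 °C). Colour is log2(CPM + 0.5) minus the mean of the gene over the 15 libraries, limited at 3 either way. WT at 37 °C had the highest group mean in 89 genes and WT at 20 °C the lowest in 68, counts that were not made over all genes.

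Channel genes outside the naming rule, and the proteins that assemble and cluster channels, were taken from a list of related genes. At 20 °C, met-2Δ against WT, 16 of 25 other potassium channel genes rose and 0 fell, 8 of 14 ligand-gated chloride and GABA receptor genes rose and 0 fell, 5 of 9 other nicotinic subunit genes rose and 0 fell, and 12 of 21 assembly and clustering genes rose and 2 fell, against 19.2% higher and 8.43% lower among all genes. Of the 3 tested two-pore potassium channel genes with other names 2 rose. Among them kcnl-2, a small-conductance calcium-activated potassium channel, averaged 2.07 ± 0.155 CPM in met-2Δ and 0.195 ± 0.0507 CPM in WT (log2 fold change 3.36, edgeR FDR 6.9e-07). The GLR-1 auxiliary subunit gene sol-1 averaged 2.14 ± 0.191 CPM in met-2Δ and 0.304 ± 0.0691 CPM in WT (2.78, FDR 1.53e-05). The same lists in met-2-CD against WT gave 10 higher and 1 lower, 4 and 1, 5 and 0, and 6 and 1, against 15.9% and 7.84% of all genes.

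Under heat in WT 16 of the 25 other potassium channel genes, 8 of the 14 chloride and GABA receptor genes, 6 of the 9 nicotinic genes and 10 of the 21 assembly genes rose and 1 fell, against 28.2% higher and 4.02% lower among all genes. In met-2Δ, where 6.3% of all genes rose, 2 genes of these lists rose, gab-1, which encodes a GABA receptor subunit, and acc-2, which encodes an acetylcholine-gated chloride channel. gab-1 had 7.93, 4.06 and 6.55 CPM in met-2Δ and 7.03, 5.34 and 6.54 CPM in WT at 37 °C, against 0.66, 0.798 and 0.992 CPM in met-2Δ and 0.0941, 0.0955 and 0.123 CPM in WT at 20 °C (heat log2 fold change 2.92 in met-2Δ and 5.88 in WT, edgeR FDR 4.96e-06 and 2.57e-09). Its heated libraries overlapped between the genotypes, as those of lgc-35 and lgc-37 did. The gene that fell in WT was oig-4, an immunoglobulin-domain protein that stabilizes acetylcholine receptor clusters on muscle. oig-4 had 2.95, 3.08 and 2.3 CPM in WT at 37 °C against 20.6, 37 and 33.7 CPM at 20 °C (-3.45, FDR 4.67e-10), and 2.52, 1.96 and 2.18 CPM in met-2Δ at 20 °C (-3.77 against WT, FDR 9.31e-10).

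The members share a place in the genome more than the rule required. Of the 129 genes 37 (28.68%) lie on chromosome X, which holds 13.66% of all genes with an annotated chromosome, and 31 (24.03%) lie on chromosome V, which holds 25.23%. Among tested genes on X, 10 of 29 members (34.5%) and 24% of all genes rose in met-2Δ against WT at 20 °C, and 17 of 29 members (58.6%) and 33.1% of all genes rose under heat in WT. On chromosome V these were 12 of 26 members (46.2%) and 23% of all genes in met-2Δ, and 17 of 26 (65.4%) and 41% under heat in WT. The rises were thus spread over chromosomes. Exons of 33 members overlap an exon of another gene on the opposite strand, in 8 of them over more than 5% of their exon length.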

How the data were processed

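The authors trimmed reads with Trimmomatic, aligned them with hisat2 through QuasR to ce10, kept unique alignments and counted those on the same strand as WormBase WS220 exons. The deposited values are raw counts per gene. CPM used TMM-scaled library sizes, and RPKM the exon lengths of WBcel235. Columns carried letters and not the replicate numbers of the labels, so each was assigned to a group only.

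Counts were tested with edgeR 4.0.16: filterByExpr, one quasi-likelihood fit with 5 group means over all 15 libraries, and Benjamini-Hochberg adjustment over 15471 genes. The SE of a log2 fold change was its size divided by the square root of F. Counting intervals are exact, at 95%, and cover counting error only. Genes were named by mean level, by the largest called differences per comparison and family, as landmarks of known function, and as exceptions to a family's direction. The members, gene lists and marker lists were chosen with earlier results of these data known. Alternatives were other scaling, filters and prior counts, DESeq2 1.42.0, thinning, a block, the compared groups alone, met-2-CD as baseline, and leaving out each library. The test was checked on simulated data.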

Additional observations from a re-analysis of the deposited data

Results flagged for a closer look

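The heat response of met-2Δ and WT was compared by the interaction term of the edgeR fit at an FDR below 0.01. The term was negative in 60 of the 108 tested channel genes (55.6%) and positive in 1 (0.926%), against 27% and 23.1% of all genes tested. Of the 60 genes 50 were called higher under heat in WT. With met-2-CD as baseline 26 genes were negative and 1 positive, against 8.87% and 5.27% of all genes. The values that follow are interaction log2 differences, the heat change of met-2Δ minus that of WT, and are negative except for twk-46.

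The nicotinic subunit genes had acr-2 at -4.48, acr-25 at -3.85, acr-20 at -3.82, acr-8 at -3.07, acr-12 at -2.4, acr-19 at -1.78, acr-11 at -1.32, acr-18 at -1.26 and acr-16 at -0.76. The glutamate receptor genes had glr-1 at -4.63, glr-5 at -4.26 and glr-8 at -2.72. With met-2-CD as baseline acr-25, acr-20, acr-12, acr-11, acr-16 and glr-5 stayed called in the same direction. The values of acr-2 (-1.24), acr-8 (-1.25), acr-19 (-1.52), acr-18 (-0.43), glr-1 (-1.38) and glr-8 (-0.73) were not called there.

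The other Cys-loop channel genes had lgc-22 at -6.25, lgc-45 at -3.91, lgc-39 at -3.57, lgc-43 at -3.42, lgc-35 at -2.81, lgc-58 at -2.46, lgc-55 at -2.22, lgc-50 at -2.1, lgc-21 at -1.82, lgc-27 at -1.64 and lgc-34 at -1.33. With met-2-CD as baseline lgc-22, lgc-45, lgc-58, lgc-50, lgc-21 and lgc-34 stayed called in the same direction. The values of lgc-39 (-0.26), lgc-43 (-0.65), lgc-35 (-1.21), lgc-55 (-0.63) and lgc-27 (-0.18) were not called there.

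The potassium channel genes had twk-49 at -6.32, twk-11 at -3.97, twk-13 at -3.82, twk-8 at -2.86, twk-18 at -2.35, twk-7 at -2.02, twk-31 at -1.66, twk-29 at -1.64, twk-40 at -1.56, twk-2 at -1.29 and twk-32 at -0.98, and twk-46 stood at 1.21. The value of twk-49 rests on its low WT libraries at 20 °C, and with met-2-CD as baseline it came to -0.1 (edgeR FDR 0.535). On that baseline twk-13, twk-8, twk-29, twk-2 and twk-46 stayed called in the same direction. The values of twk-11, twk-18, twk-7, twk-31, twk-40 and twk-32 were not called there. The fitted values of acr-2 and lgc-35 rest on 1 or 2 counts per WT library at 20 °C and depend on the prior count.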

How the results depend on the processing

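Counts of called channel genes are given as higher and lower. They stand without the share of all genes, so they show how far a count moved and not an excess over all genes. Under FDR alone the lower counts were 4 (met-2Δ against WT, 20 °C), 5 (met-2-CD against WT), 3 (met-2Δ against met-2-CD), 3 (WT heat), 3 (met-2Δ heat, with 20 higher) and 15 (met-2Δ against WT, 37 °C). A fit to the compared groups alone gave 17 higher for met-2-CD against WT and 7 for met-2Δ against met-2-CD. With met-2-CD as baseline WT heat gave 45 higher and the interaction 26 negative. Library totals or a prior count of 8 gave 1 lower for met-2Δ against WT at 20 °C, a prior count of 8 gave 3 higher for met-2Δ heat, and totals gave 0 positive interactions. For met-2Δ against WT at 37 °C a stricter filter, a prior count of 8 and DESeq2 gave 1 higher each. Leaving out 1 library gave ranges of 36 to 42 higher and 2 to 3 lower, 22 to 33 and 2 to 5, 8 to 20 and 1 to 1, 63 to 71 and 0 to 0 (WT heat), 5 to 8 and 0 to 0 (met-2Δ heat), 0 to 3 and 0 to 9 (37 °C), and 0 to 1 positive and 47 to 60 negative interactions. A fit with the column letter as replicate block gave 40 and 2, 28 and 3, and 11 and 1 for the genotypes at 20 °C. It gave 68 and 0 and 7 and 0 for heat, 1 and 5 at 37 °C, and 1 and 54 for the interaction. Deviations from the group mean correlated between -0.613 and 0.272 in same-letter libraries. The same-letter means were -0.354 to -0.011 in pairs of groups with met-2-CD and 0.05 to 0.157 in all other pairs. Whether a letter marks libraries made together was not tested.

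Scaling by totals moved the median of all genes by 0.2 for met-2Δ against WT at 20 °C, 0.13 for met-2-CD against WT, 0.23 for WT heat and -0.21 for the interaction, and split all genes 3478 higher to 848 lower, against 2971 to 1304, in the first and 2458 to 5111, against 3574 to 4175, in the last. Of 306 values of single named genes 55 lost their call under some alternative and 1 reversed. twk-5 under WT heat was -1.68 and not called, and was 2.43 and called higher with met-2-CD as baseline. That baseline adds the genotype difference, and twk-5 was called lower in met-2-CD than in WT at 20 °C. In 26 more values the sign changed under some alternative with no call either way. The cause of these sign changes was not tested. Most members stood below 1 CPM at 20 °C, where a few counts decide a ratio.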
